A study of Mus musculus with 6 samples.

Results

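The genes described here encode the protein complexes that contain Pontin: 40 genes, picked by symbol from the deposited table of 56748 genes as the known subunits of the INO80, TIP60 (NuA4) and SRCAP chromatin remodelling complexes and of the R2TP co-chaperone with its close associates. Each symbol matched 1 row. Of the 40 genes, 2 encode the ATPases Pontin (Ruvbl1) and Reptin (Ruvbl2), 12 belong to INO80, 11 to TIP60, 3 to SRCAP and 8 to the R2TP group, while 4 are shared between complexes.

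Gene expression was measured by RNA-seq of heart tissue from 3 Pontin cTG mice and 3 wildtype (WT) non-transgenic littermates. All were males on a C57Bl/6 background, aged 10 weeks at the start of the infusion, and animals of both genotypes received angiotensin II (Ang-II) at 1.5 mg/kg body weight per day for 14 days from mini-osmotic pumps, so no library represents an untreated heart. The Pontin cTG mice carried flag-tagged human Pontin cDNA behind the mouse α-MHC promoter, which is active in cardiomyocytes, and which founder line was sequenced is not given in the sources used here. In RNA from heart tissue, fewer cells of a type and less RNA per cell cannot be told apart.

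Pontin and Reptin are related AAA+ ATPases that assemble into rings. In INO80, TIP60 and SRCAP the ring serves as a platform for a much larger enzyme: INO80 slides nucleosomes, TIP60 acetylates histones H4 and H2A, and SRCAP installs the histone variant H2A.Z. In R2TP the same ring works in the cytoplasm with HSP90 to assemble RNA polymerase II, small nucleolar ribonucleoproteins (snoRNPs) and kinases of the mTOR and ATM family.

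The libraries held 13194038, 12436822 and 12772244 counts in WT replicates 1 to 3 and 14584102, 15279201 and 16888124 counts in Pontin cTG replicates 1 to 3. Pontin cTG replicate 2 stood apart from the rest: on the first principal component of all tested genes, which carried 48.6% of the variance, it lay at 50.9 and the other 5 libraries lay between -23.1 and 16.2. It was also the library with the highest normalised count for 18 of the 40 genes and the lowest for 8, so values without it are given for each complex and beside many of the single genes. Normalised counts are the deposited counts scaled to 1 common library size. No pair of libraries agreed within sampling noise, so each was counted as 1 sample.

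All 40 genes passed the filter on low counts, and none of them differed between Pontin cTG and WT hearts at an adjusted p under 0.05 by the edgeR quasi-likelihood test. The same was true of the background, since 0% of the 13888 genes tested were called. Without adjustment, 1 of the 40 genes (Ino80e) was higher in Pontin cTG hearts at p under 0.05 and none was lower, beside 1.02% of all tested genes higher and 1.03% lower. The log2 fold change (Pontin cTG over WT) was positive for 21 genes and negative for 19, with a median of 0.0039 against 0.0013 over all tested genes. Its size had a median of 0.11 over the 40 genes and 0.14 over all tested genes. The median over the 40 genes ranged from -0.014 (without WT replicate 3) to 0.077 (without Pontin cTG replicate 1) as single libraries were left out. Without Pontin cTG replicate 2 it was -0.0017, 20 values were positive and 20 negative, 7 genes had changed sign and none of the 40 was called, although 3 other genes then were.

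The precision of the data set bounds on what could have been missed. The 95% interval of the fold change lay within 1.5-fold in either direction for 29 genes and within 2-fold for 38. The exceptions at 2-fold were Srcap and Znhit2, which had the lowest counts. Standard errors ranged from 0.12 to 0.34 on the log2 scale. With 3 hearts per group the exact permutation test on a single gene cannot give a p below 0.1.

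**Figure D1:**
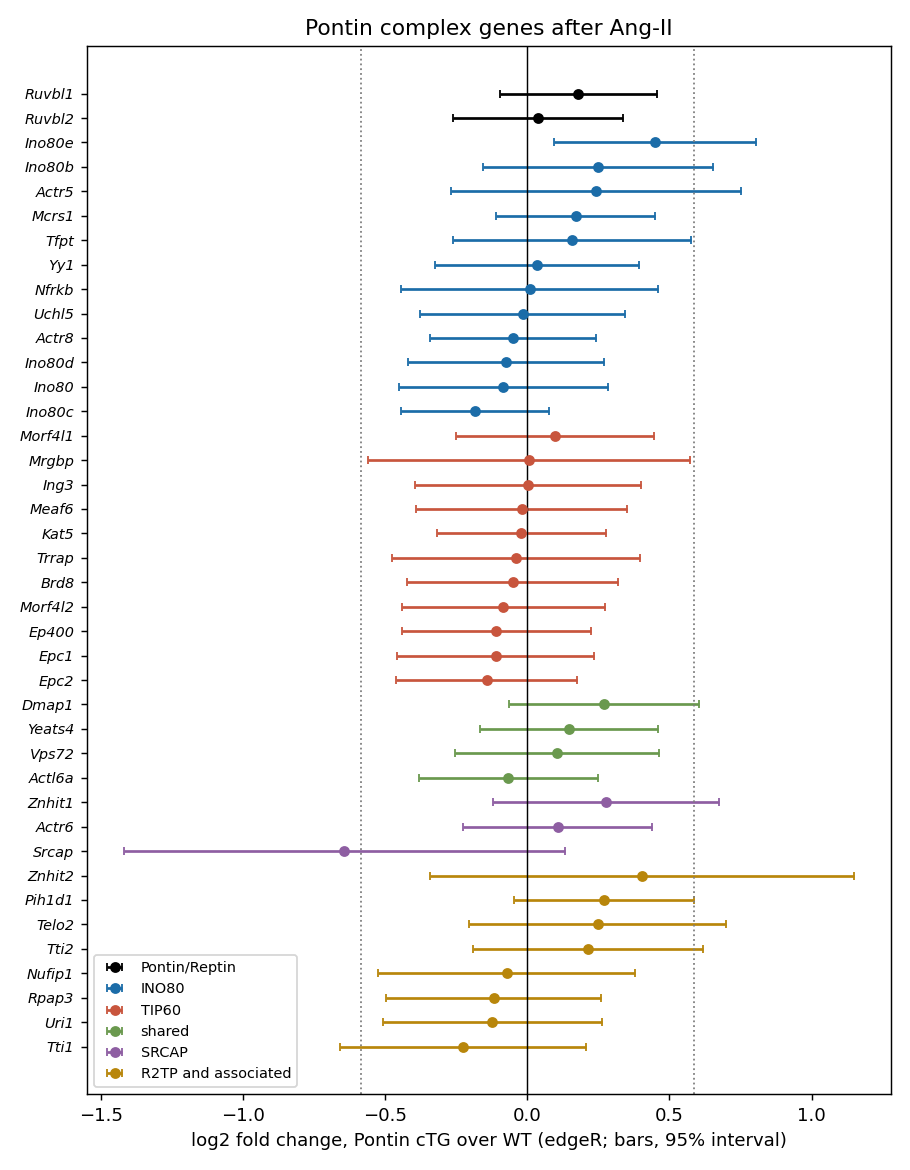
Log2 fold change (Pontin cTG over WT, x axis) of the 40 genes, coloured by complex, with points for the edgeR estimates, bars for their 95% intervals and dotted lines at 1.5-fold in either direction (3 hearts per group). Ino80e, at 0.45, has the only interval that leaves out 0, and the widest intervals belong to Srcap and Znhit2.

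In 3 genes every Pontin cTG heart lay above every WT heart (Ruvbl1, Ino80e and Dmap1), and in 1 gene every Pontin cTG heart lay below (Ino80c). These are 7.5% and 2.5% of the 40 genes, where 4.7% of all tested genes lay apart in the higher direction and 3.63% in the lower one.

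**Figure D2:**
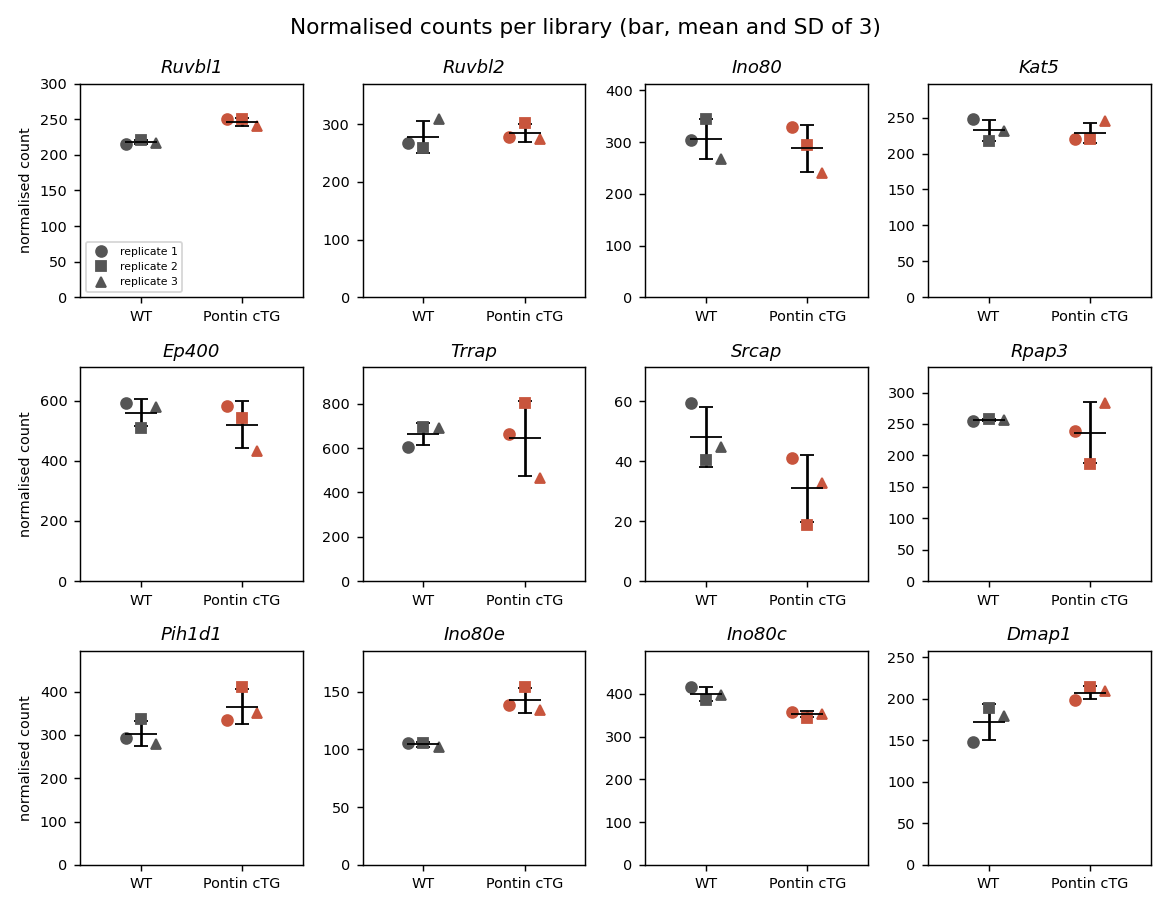
Normalised count (y axis, from 0) of 12 genes in each heart, WT in grey and Pontin cTG in red, with marker shapes for replicates 1 to 3 and bars for the mean and SD of 3 hearts. The groups are apart for Ruvbl1, Ino80e, Dmap1 and Ino80c and overlap for the other 8 genes.

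Ruvbl1, the gene of Pontin itself (GRCm38 chr6:88465409-88497572, plus strand), is the mouse counterpart of the transgene and was therefore examined first. It had 216, 221 and 217 normalised counts in the WT hearts and 249.9, 250.0 and 240.0 in the Pontin cTG hearts. The groups did not overlap, with 218 ± 2.72 (SD, n = 3) in WT and 247 ± 5.79 (SD, n = 3) in Pontin cTG hearts, 13.2% apart. The edgeR log2 fold change was 0.18 ± 0.12 (SE), with a 95% interval of -0.10 to 0.45 and an adjusted p of 0.999, and the exact permutation p was 0.1, the smallest this design allows. The count belongs to the mouse row; how many reads of the human cDNA were assigned to it was not tested, and the values do not measure the level of the transgene.

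Ruvbl2 encodes Reptin, the ring partner of Pontin (chr7:45421760-45438096, minus strand). Its normalised counts were 266, 258 and 309 in WT and 278, 302 and 274 in Pontin cTG hearts. The groups overlapped, and the log2 fold change was 0.036 ± 0.13 (SE, 95% interval -0.26 to 0.33, edgeR adjusted p = 0.999, exact permutation p = 0.6). Per length, in TPM (counts scaled by exonic length and library total), the ratio of Ruvbl1 to Ruvbl2 was 1.24, 1.31 and 1.07 in WT and 1.37, 1.26 and 1.34 in Pontin cTG hearts. With means of 1.21 ± 0.120 and 1.32 ± 0.0557 (SD over 3 hearts each, exact permutation p = 0.2), the groups overlapped.

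The sequences upstream of both ATPase genes and of Ino80e, the member with the smallest p, are shown to set the promoters of the ring partners beside each other. Each is the 250 bases before the start site in RefSeq (GRCm38.p6), on the gene's strand. Capitals mark the CCAAT box, which reads ATTGG on the other strand, the GC box core GGGCGG, the TATA box letters TATAAA, which read TTTATA on the other strand, and the letters GCCATNTT, each sought on both strands. The positions are chr6:88465159-88465408 for Ruvbl1, chr7:45434465-45434714 for Ruvbl2 and chr7:126862373-126862622 for Ino80e, for which 1 of 2 start sites in RefSeq is shown. The RefSeq start of Ruvbl2 lies inside the longer GENCODE gene.
Ruvbl1: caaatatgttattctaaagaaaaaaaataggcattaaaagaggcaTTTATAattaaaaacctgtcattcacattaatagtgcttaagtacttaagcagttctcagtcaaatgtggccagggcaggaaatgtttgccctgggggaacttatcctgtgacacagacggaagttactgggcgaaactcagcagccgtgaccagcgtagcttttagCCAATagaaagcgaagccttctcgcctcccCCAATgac
Ruvbl2: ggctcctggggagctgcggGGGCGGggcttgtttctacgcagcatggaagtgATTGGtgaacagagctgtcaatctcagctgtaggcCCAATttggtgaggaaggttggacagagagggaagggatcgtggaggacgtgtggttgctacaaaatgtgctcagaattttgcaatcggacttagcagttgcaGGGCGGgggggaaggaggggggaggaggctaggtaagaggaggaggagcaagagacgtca
Ino80e: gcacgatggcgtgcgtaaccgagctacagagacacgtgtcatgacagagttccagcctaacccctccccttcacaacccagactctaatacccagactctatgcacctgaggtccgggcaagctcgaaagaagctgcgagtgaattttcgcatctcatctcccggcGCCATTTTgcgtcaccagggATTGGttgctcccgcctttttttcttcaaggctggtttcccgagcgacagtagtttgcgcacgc

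Ruvbl1 and Ruvbl2 both held 2 copies of CCAAT, the letters bound by the factor NF-Y. They differed in the rest, since Ruvbl2 held 2 copies of GGGCGG, the core of the GC box bound by Sp1-type factors, while Ruvbl1 held none and instead had the TATA letters on the other strand. The G and C content was 42.4% for Ruvbl1, 56.8% for Ruvbl2 and 55.2% for Ino80e. Ino80e held 1 CCAAT and 1 GCCATNTT, which contains the core letters recognised by YY1, itself an INO80 subunit.

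RefSeq promoters were matched for 32 of the 40 genes. CCAAT was present in 16 of them (50%) and in 37.5% of the 27025 genes in the promoter set, with both strands searched and a gene counted if any of its start sites had the motif. GGGCGG was present in 20 members (62.5%, against 35.4% of all genes) and GCCATNTT in 3 (9.38% against 4.49%), namely Ino80b, Ino80e and Znhit1. TATAAA was found in 2 members, Ruvbl1 and Tfpt (6.25% against 14.3%). These are matches of letters only.

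The 13 genes of the INO80 complex, with the shared Actl6a included, had log2 fold changes around a median of 0.0082, 7 above and 6 below 0, and leaving out Pontin cTG replicate 2 gave a median of 0.025. Over all libraries left out in turn it ran from -0.072 (without WT replicate 3) to 0.089 (without WT replicate 1). Ino80, the ATPase motor of the complex (chr2:119373042-119477687), had normalised counts of 305, 344 and 267 in WT and 330.0, 295 and 240.0 in Pontin cTG hearts. The lowest value of all 6 was in a Pontin cTG heart and the highest in a WT heart, but the groups overlapped (log2 fold change -0.084 ± 0.16 SE, edgeR adjusted p = 0.999, exact permutation p = 0.6).

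Ino80e, an accessory subunit (chr7:126850960-126862377, minus strand), had 106, 105 and 102 normalised counts in WT and 139, 154 and 134 in Pontin cTG hearts. All Pontin cTG hearts were above all WT hearts, and the mean was 36.5% higher (104 ± 2.23 against 142 ± 10.4, SD over 3 hearts each). The log2 fold change of 0.45 ± 0.16 (SE, 95% interval 0.09 to 0.80) had an unadjusted p of 0.0192 by edgeR and ranked 69 among all tested genes, and its adjusted p was 0.999 (exact permutation p = 0.1). Without Pontin cTG replicate 2 it was 0.39. Of the exonic bases of Ino80e, 16.4% are shared with genes on the opposite strand, and the strand setting of the counting is not given in the sources used here.

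Ino80c, another accessory subunit, lay in the other direction. Its normalised counts were 416, 386 and 397 in WT and 358, 344 and 353 in Pontin cTG hearts. No Pontin cTG heart reached the WT range, with a log2 fold change of -0.18 ± 0.12 (SE, 95% interval -0.44 to 0.08, edgeR adjusted p = 0.999, exact permutation p = 0.1). Ino80e and Ino80c were the only INO80 genes with groups apart, 7.69% of the 13 in each direction, a single gene each way beside the 4.7% and 3.63% of all tested genes.

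The remaining INO80 genes had overlapping groups. The log2 fold change was 0.25 ± 0.18 (SE) for Ino80b, 0.24 ± 0.23 for Actr5 and 0.17 ± 0.12 for Mcrs1, which is also a nucleolar protein. Tfpt had 0.16 and the zinc finger protein Yy1 0.03, and Nfrkb, Uchl5 (a deubiquitinase bound to the complex), Actr8 (a nuclear actin-related protein like Actr5) and Ino80d lay between -0.073 and 0.0082. Without Pontin cTG replicate 2 the values were 0.058 for Tfpt, 0.14 for Yy1, -0.21 for Nfrkb, 0.16 for Actr5, 0.12 for Mcrs1 and 0.21 for Ino80b. Per length, the INO80 genes spanned from Actr5 at 2.31 TPM to Mcrs1 at 20.4 TPM.

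For the TIP60 complex the median log2 fold change was -0.021 over 15 genes (6 above 0, 9 below), smaller in size than the standard error of each of them. Leaving out Pontin cTG replicate 2 gave -0.090 and leaving out Pontin cTG replicate 1 gave 0.067, the ends of the range over libraries, so its sign and its place among the complexes rested on single libraries. Kat5, the acetyltransferase that gives the complex its name (chr19:5603014-5610237), had 248, 218 and 231 normalised counts in WT and 221, 221 and 245 in Pontin cTG hearts. The values were interleaved (log2 fold change -0.021 ± 0.13 SE, 95% interval -0.32 to 0.28, edgeR adjusted p = 0.999, exact permutation p = 0.9).

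Trrap, the large scaffold that ties the complex to transcription factors (chr5:144767732-144859778), had 605, 694 and 691 normalised counts in WT and 665, 804 and 466 in Pontin cTG hearts. Pontin cTG replicate 2 was the highest of the 6 and replicate 3 the lowest, so the group SD was 170 against 50.9 in WT (log2 fold change -0.040 ± 0.19 SE, edgeR adjusted p = 0.999, exact permutation p = 0.8). Leaving out replicate 2 gave -0.23 and leaving out replicate 3 gave 0.15.

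Ep400, the ATPase of TIP60 that exchanges H2A variants (chr5:110664373-110770717), had 592, 509 and 579 normalised counts in WT and 584, 543 and 432 in Pontin cTG hearts. Only replicate 3 of the Pontin cTG hearts lay below the WT range (log2 fold change -0.11 ± 0.15 SE, edgeR adjusted p = 0.999, exact permutation p = 0.6).

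Among the smaller TIP60 subunits, the smallest p in the higher direction belonged to Morf4l1, a chromodomain protein, and in the lower direction to Epc2, a scaffold of the catalytic module. Morf4l1 had 1983, 2145 and 1823 normalised counts in WT and 2061, 1833 and 2472 in Pontin cTG hearts, the group ranges overlapping (0.10 ± 0.15 SE, edgeR adjusted p = 0.999, exact permutation p = 0.6). Epc2 had 371, 356 and 373 in WT and 352, 278 and 366 in Pontin cTG hearts, where replicate 2 was well below the other 5 (-0.14 ± 0.14 SE, edgeR adjusted p = 0.999, exact permutation p = 0.2). Without that replicate Epc2 was -0.028 and Morf4l1 0.19.

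The proportions of paralogues within TIP60 overlapped between the groups. Morf4l2, with 45.5 TPM, and Morf4l1, with 32.1 TPM, were the most abundant of the 40 genes per length, and the ratio of Morf4l1 to Morf4l2 was 0.675 ± 0.0710 in WT hearts against 0.761 ± 0.156 in Pontin cTG (SD over 3 hearts each, exact permutation p = 0.4). The ratio of Epc1 to Epc2 was 0.945 ± 0.200 and 0.974 ± 0.124 (exact permutation p = 0.8). Brd8, a bromodomain protein, and Meaf6, Ing3 and Mrgbp had log2 fold changes between -0.052 and 0.0053, and Mrgbp had 230 normalised counts in Pontin cTG replicate 2 against 114 to 188 in the other 5 libraries, and a log2 fold change of -0.32 without that replicate.

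**Figure D3:**
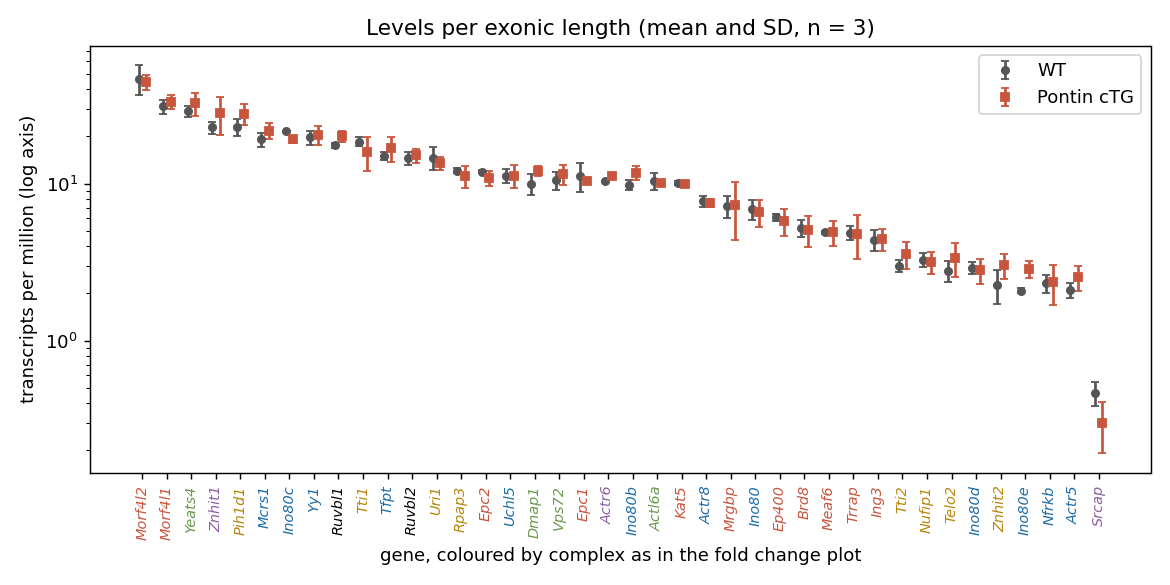
Level of the 40 genes per length (TPM, log y axis), ordered from highest to lowest, with points for the mean and bars for the SD of 3 WT (grey) and 3 Pontin cTG (red) hearts. Morf4l2, at a mean of 45.5 TPM over the 6 hearts, is the highest and Srcap, at 0.382 TPM, lies apart at the bottom.

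The 4 shared subunits comprised Actl6a (an actin-related protein also found in the BAF remodeller), Dmap1, Yeats4 (a reader of acetylated histones) and Vps72 (a chaperone of H2A.Z). Dmap1 (chr4:117674681-117682273, minus strand) had 148, 188 and 179 normalised counts in WT and 198, 214 and 209 in Pontin cTG hearts. All Pontin cTG hearts lay above all WT hearts (172 ± 21.4 against 207 ± 8.08, log2 fold change 0.27 ± 0.15 SE, 95% interval -0.06 to 0.61, edgeR adjusted p = 0.999, exact permutation p = 0.1). With single libraries left out, the log2 fold change of Dmap1 ran from 0.18 to 0.34. Actl6a had 259, 296 and 244 in WT and 249.9, 235 and 278 in Pontin cTG hearts, with overlapping groups (-0.066 ± 0.14 SE, edgeR adjusted p = 0.999, exact permutation p = 0.6). Yeats4 had a log2 fold change of 0.15 and Vps72 of 0.10, both with overlapping groups, and without Pontin cTG replicate 2 Yeats4 was 0.043.

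For the SRCAP complex the median log2 fold change over 7 genes was 0.11 (from 0.061 without Pontin cTG replicate 2 to 0.18 without Pontin cTG replicate 3), with 5 above 0 and 2 below (Srcap and Actl6a), and its own ATPase lay opposite to most of its partners. Srcap (chr7:127511983-127561219) was read 54, 36 and 40 times in WT and 42, 22 and 38 times in Pontin cTG hearts, which gave 59.5, 40.4 and 44.7 against 41.0, 18.8 and 32.9 normalised counts. The ranges overlapped by 1 heart, Pontin cTG replicate 1, which had slightly more than the lowest WT heart. The log2 fold change was the most negative of the 40 genes, -0.64 ± 0.34 (SE, 95% interval -1.42 to 0.13), with an unadjusted p of 0.0931 and an adjusted p of 0.999 by edgeR (exact permutation p = 0.2). It was -0.39 without Pontin cTG replicate 2 and -0.89 (unadjusted p = 0.0462 by edgeR) without Pontin cTG replicate 1.

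The low counts of Srcap limit what can be read from it. In the GENCODE M21 annotation, 61.7% of the exonic bases of Srcap are shared with another gene on the same strand, Gm42715, which had 34 counts over the 6 libraries beside 232 for Srcap. Its counts were 4, 5 and 1 in WT and 4, 12 and 8 in Pontin cTG hearts, highest in Pontin cTG replicate 2, where Srcap was lowest. Set against the 5524 unshared exonic bases alone, the mean level of Srcap would be 1.09 TPM in place of 0.382 TPM. How reads in the shared bases were assigned was not tested.

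Znhit1 and Actr6, the other subunits listed for SRCAP alone, had estimates above 0. Znhit1, a zinc finger subunit needed for H2A.Z exchange, had 286, 295 and 254 normalised counts in WT and 309, 424 and 279 in Pontin cTG hearts. Only Pontin cTG replicates 1 and 2 lay above the WT range (log2 fold change 0.28 ± 0.18 SE, edgeR adjusted p = 0.999, exact permutation p = 0.3), and without replicate 2 the value was 0.08. Of its exonic bases, 28.4% overlap a gene on the opposite strand, Plod3. Actr6, an actin-related protein, had 0.11 ± 0.15 (SE), with overlapping groups. Per length, the ratio of Ep400 to Srcap, the ATPases that act on H2A.Z in their respective complexes, was 13.4 ± 1.85 in WT and 21.2 ± 9.89 in Pontin cTG hearts (exact permutation p = 0.1). The Pontin cTG values were 16.1, 32.6 and 14.8, with replicate 2 far above the others. The ratio of Ino80 to Srcap was 15.2 ± 4.10 and 24.0 ± 10.8, with overlapping groups (exact permutation p = 0.3), and both ratios inherit the low counts of Srcap.

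In the R2TP group the median log2 fold change was 0.071, with 4 genes above 0 and 4 below. It was 0.052 without Pontin cTG replicate 2, and ran from 0.031 (without WT replicate 2) to 0.13 (without Pontin cTG replicate 3) over the libraries left out. Rpap3, the adaptor that joins the ring to HSP90 (chr15:97675097-97705825), had 254, 258 and 256 normalised counts in WT and 238, 187 and 283 in Pontin cTG hearts. The WT hearts were almost identical (SD 1.81) and the Pontin cTG hearts lay on either side of them (SD 48.3, log2 fold change -0.12 ± 0.17 SE, edgeR adjusted p = 0.999, exact permutation p = 0.7), and without replicate 2 the value was 0.028.

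Pih1d1, which recruits clients to R2TP (chr7:45154303-45160065), had 294, 337 and 279 normalised counts in WT and 335, 411 and 350.0 in Pontin cTG hearts. A single WT heart, replicate 2, exceeded the lowest Pontin cTG heart, and only by that heart did the groups overlap. The log2 fold change was 0.27 ± 0.14 (SE, 95% interval -0.05 to 0.59), with an unadjusted p of 0.0875 and an adjusted p of 0.999 by edgeR (exact permutation p = 0.2), and 0.18 without Pontin cTG replicate 2. With all hearts included, the core subunits Rpap3 and Pih1d1 thus had estimates of opposite sign. Without Pontin cTG replicate 2 both estimates were positive.

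The TTT co-chaperone, made of Telo2, Tti1 and Tti2, links R2TP to the kinases of the mTOR and ATM family. Tti1 had 509, 461 and 538 normalised counts in WT and 519, 307 and 463 in Pontin cTG hearts, with replicate 2 far below the other 5 (-0.23 ± 0.19 SE, edgeR adjusted p = 0.999, exact permutation p = 0.5), and -0.03 without it. Telo2 had 0.25 ± 0.20 (SE) and Tti2 0.21 ± 0.18. The lowest count of the group belonged to Znhit2, an adaptor for the U5 snRNP, with 14.3, 22.4 and 20.1 normalised counts in WT and 25.4, 28.3 and 21.7 in Pontin cTG hearts (0.40 ± 0.33 SE). Uri1, a prefoldin-like partner, had -0.12 ± 0.17 and Nufip1, a snoRNP assembly factor, had -0.073 ± 0.20. Without Pontin cTG replicate 2, Telo2 was 0.077, Tti2 0.11, Uri1 -0.021 and Znhit2 0.31. Over all libraries left out in turn, Znhit2 ran from 0.24 to 0.54.

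Added over the 40 genes, the normalised counts came to 13326, 13528 and 12664 in WT and 13292, 13442 and 13243 in Pontin cTG hearts. The groups overlapped, and the sum is weighted towards abundant genes such as Morf4l1. Per library, the median deviation of the 40 genes from their own mean (log2) was -0.0011, 0.0061 and -0.071 in WT and 0.012, 0.14 and 0.0057 in Pontin cTG hearts, so replicate 2 was the library furthest from the gene means. The coefficient of variation among hearts had a median of 10.04% in WT and 13.4% in Pontin cTG and was larger in Pontin cTG for 27 of the 40 genes.

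Transcript length ran alongside the sign of the differences. The 20 shorter genes (1201 to 3886 exonic bases) had log2 fold changes with a median of 0.11, 13 above 0 and 7 below, and the 20 longer genes (3974 to 20859 bases) had -0.045, with 8 above and 12 below. Spearman's rho between fold change and length was -0.40 over the 40 genes and -0.31 over all 13888 tested genes, a description across genes that share the same 6 libraries. Over all genes, each library's deviation had a rho with length of 0.18, 0.18 and 0.11 in WT and 0.084, -0.20 and -0.16 in Pontin cTG hearts. Its part in the values of Ino80e, Dmap1, Pih1d1 and Srcap was not tested.

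**Figure D4:**
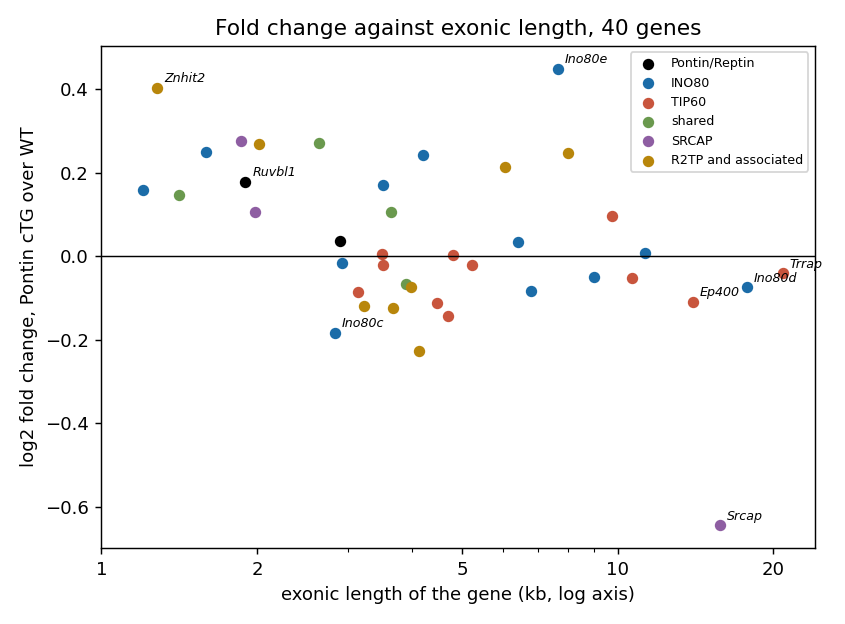
Log2 fold change (Pontin cTG over WT, y axis) against exonic length (kb, log x axis), with 1 point for each of the 40 genes, coloured by complex. The shorter 20 genes have a median of 0.11 and the longer 20 a median of -0.045, and Srcap lies lowest at -0.64.

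The clients and partners of the complexes were examined as a list of 52 genes, all of which passed the filter. None was called at an adjusted p under 0.05 by edgeR. At an unadjusted p under 0.05, 1 was higher and none lower, beside 1.02% and 1.03% of all tested genes. The list had a median log2 fold change of 0.064 (32 genes above 0, 20 below). In 8 of them all Pontin cTG hearts lay above all WT hearts and in 2 below, 15.4% and 3.85% of the list, beside the 4.7% and 3.63% of all tested genes given above.

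RNA polymerase II, whose assembly depends on R2TP, was represented by 17 genes of subunits and assembly factors, 13 above 0 and 4 below, with a median of 0.15. Their median deviation from the gene means was highest in Pontin cTG replicate 2 (0.16, against 0.0075 and 0.068 in Pontin cTG replicates 1 and 3), and without it the median was 0.13. The gene with p under 0.05 was Polr2l, a small subunit, with 440.5, 425 and 447 normalised counts in WT and 503, 641 and 514 in Pontin cTG hearts. Its groups did not overlap (0.34 ± 0.13 SE, unadjusted p = 0.0341, adjusted p = 0.999 by edgeR, exact permutation p = 0.1). Polr2c, Polr2d, Polr2e and Polr2i also had all Pontin cTG hearts above all WT hearts, and Rpap1, an assembly factor, had all below. Groups thus lay apart for 29.4% of the 17 genes in the higher direction and 5.88% in the lower one. The shares of all tested genes were 4.7% and 3.63%. The catalytic subunit Polr2a had -0.21 ± 0.15 (SE) and its neighbour Polr2b -0.22 ± 0.15, both with overlapping groups. With single libraries left out, Polr2a ran from -0.36 to -0.11 and Polr2b from -0.30 to -0.091. Over the 17 genes exonic length ran from 624 bases in Polr2k to 7846 in Gpn1, with 1015 in Polr2d, 1650 in Polr2l and 7067 in Polr2a. The part of length in these values was not tested.

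The snoRNP proteins and their assembly factors had a median of 0.18 over 12 genes (8 above 0, 4 below), and 0.10 without Pontin cTG replicate 2. Their median deviation from the gene means was 0.21 in that replicate, -0.047 and 0.11 in Pontin cTG replicates 1 and 3, and between -0.092 and -0.063 in WT hearts. Nop10, of the H/ACA particle, had 443, 459 and 499.7 normalised counts in WT and 533, 629 and 536 in Pontin cTG hearts, with no overlap (0.28 ± 0.13 SE, edgeR adjusted p = 0.999, exact permutation p = 0.1), and Gar1, its partner in that particle, also had groups apart (0.35 ± 0.17 SE). The prefoldin-like partners of Uri1 had values above 0 in 4 of 4 genes, with a median of 0.23, and Pfdn6 had groups apart (0.28 ± 0.13 SE). Groups lay apart in the higher direction for 16.7% of the 12 snoRNP genes and 25% of these 4, beside 4.7% of all tested genes. Exonic length ran from 1109 bases (Nop10) to 10758 (Nop58) in the snoRNP list and from 1193 (Pfdn6) to 2443 (Pdrg1) in the prefoldin-like list. The part of length in both lists was not tested.

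The 5 kinase clients of the TTT co-chaperone had values below 0, with a median of -0.15 and overlapping groups. Without WT replicate 2 the median was -0.030. Their median deviation from the gene means was -0.44 in Pontin cTG replicate 3 and between -0.054 and 0.285 in the other 5 libraries. These genes are long, with 10109 (Mtor) to 23984 (Smg1) exonic bases, and the part of length in their values was not tested. Atm, the kinase activated by DNA breaks, had 172, 188 and 167 normalised counts in WT and 192, 96.8 and 110.0 in Pontin cTG hearts (-0.40 ± 0.25 SE, edgeR adjusted p = 0.999, exact permutation p = 0.4). The genes of H2A variants and the H2A.Z chaperone Anp32e had a median of 0.061, with the smallest p for H2ax (0.35 ± 0.20 SE). Both HSP90 genes had overlapping groups (median 0.064), with the smaller p for Hsp90aa1 (0.07 ± 0.19 SE), and their median lay at -0.091 once Pontin cTG replicate 1 was left out and at 0.17 once Pontin cTG replicate 2 was. The U5 snRNP, another R2TP client, had a median of -0.015, with the smallest p for Prpf8 (-0.34 ± 0.17 SE). Leaving out Pontin cTG replicate 2 gave a median of -0.14, and leaving out WT replicate 2 gave 0.029, with Prpf8 at -0.21. Among 3 transcription factors known to bind Pontin, E2f1 had the smallest p (-0.51 ± 0.46 SE). Its counts were low, 27, 26 and 24 in WT and 22, 36 and 9 in Pontin cTG hearts. With single libraries left out E2f1 ran from -0.98 to -0.12. Ctnnb1, which encodes β-catenin, had all Pontin cTG hearts below all WT hearts (-0.11 ± 0.13 SE). That is 33.3% of these 3 genes, beside 3.63% of all tested genes.

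Cell type markers were read beside these values. The sample titles say heart tissue. The atrial markers Myl7 and Sln were at 0 to 6 counts in every library, and the 8 cardiomyocyte genes were all tested. Together these 8 genes had between 690171 and 795297 normalised counts per heart. Myh6 had the most normalised counts of them in every library, before any scaling by length. The summed levels were 694422, 795297 and 710125 in WT and 713078, 761909 and 690171 in Pontin cTG hearts, so the groups overlapped in the sum, which Myh6 and Actc1 dominate. Gene by gene, 4 were above 0 and 4 below (median 0.035): Tnni3, a troponin gene with the smallest p (0.30 ± 0.14 SE), and the myosin light chain genes Myl2 (0.24) and Myl3 (0.23) had all Pontin cTG hearts above all WT hearts, Actc1 had all below (-0.11), and Ryr2 was at -0.34 and Myh6 at -0.18. These are 37.5% and 12.5% of the 8 markers, beside 4.7% and 3.63% of all tested genes. With single libraries left out, the median of the 8 markers ran from 0.0035 to 0.14. Ryr2 then ran from -0.66 to -0.093 and Myl3 from 0.11 to 0.33. Of the other atrial markers, Myl4 had 8, 19 and 21 counts in WT and 29, 51 and 25 in Pontin cTG hearts, with the smallest p of that list and overlapping normalised counts (0.80 ± 0.44 SE, edgeR adjusted p = 0.999, exact permutation p = 0.2). Nppa, a stress-responsive gene that is also high in atria, stood at 7716 normalised counts in Pontin cTG replicate 2 against 360.4 to 1842 in the other 5 libraries. Its log2 fold change was 1.13, and -0.86 without that replicate, while that of Myl4 was then 0.48. The median of both was 0.97 with that replicate and -0.19 without it.

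The 7 fibroblast markers summed to 17472, 26869 and 15061 in WT and 17692, 27077 and 13991 in Pontin cTG hearts, highest in replicate 2 of each group, with a median of 0.019 (4 above 0, 3 below). The smallest p was that of Pdgfra (-0.41 ± 0.21 SE), and Postn (0.52) and Tcf21 (0.22) lay in the other direction. Leaving out Pontin cTG replicate 2 gave a median of -0.29, and leaving out WT replicate 2 gave 0.28. Pdgfra was -0.16 without WT replicate 2, and Tcf21 was 0.036 without WT replicate 3. The 5 macrophage markers had the lowest median of the marker lists, -0.46 (1 above 0, 4 below), with sums of 2261, 3693 and 2348 in WT and 2424, 2414 and 1658 in Pontin cTG hearts. In that list Mrc1 had the smallest p (-0.66 ± 0.29 SE, unadjusted p = 0.0484 by edgeR, adjusted p = 0.999), and Csf1r had all Pontin cTG hearts below all WT hearts (-0.39). C1qa was the 1 marker above 0 (0.07 ± 0.23 SE). Mrc1 alone had an unadjusted p under 0.05, beside 1.03% of all tested genes lower at that level. Groups lay apart in the lower direction for 20% of the list, beside 3.63% of all tested genes. Without WT replicate 2, the library with the highest sum, the median was -0.15, Mrc1 was -0.25 and Csf1r was -0.22. The 5 endothelial markers summed to 12552, 12720 and 12662 in WT and 12032, 15244 and 10837 in Pontin cTG hearts, with a median of 0.017 (3 above 0, 2 below) and the smallest p for Tie1 (0.16 ± 0.17 SE). Without Pontin cTG replicate 2 all 5 were below 0, with a median of -0.14 and Tie1 at -0.020. The smooth muscle and pericyte markers had a median of -0.11 (Pdgfrb, -0.15 ± 0.15 SE), the erythroid markers 0.0045 (Hba-a2, -0.15 ± 0.40 SE) and the single lymphocyte marker tested, Ptprc, -0.32 ± 0.36 (SE), which was 0.23 once WT replicate 2 was left out and -0.57 once Pontin cTG replicate 2 was. Over the libraries left out, the smooth muscle and pericyte median ran from -0.18 to -0.026, and Pdgfrb from -0.26 to -0.033. The erythroid median ran from -0.23 to 0.29. Adipocyte markers did not pass the filter and the T cell marker Cd3e had 0 to 4 counts. The part of cell composition in the values of the 40 genes was not tested.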

How the data were processed

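Total RNA was taken from hearts with Trizol. The authors deposited counts per gene, whole numbers with no normalisation, for 3 WT and 3 Pontin cTG libraries in 1 table, and all of its sample columns were matched to samples by name. The study's methods name Trimmomatic, STAR and the mm10 genome, while the submitters' processing notes name fastp, HISAT2, featureCounts, DESeq2 and GRCm39; which made the table is not given in the sources used here. Of the 40 genes, 39 had the same exonic length as in GENCODE M21 (GRCm38) but only 1 had the same start and end, so all positions printed here, and exon overlaps, come from GENCODE M21 on GRCm38 and the promoters from RefSeq on GRCm38.p6. The study's methods mention a principal component outlier that was not carried into the analysis, and the 3 mice a group given for this comparison are as many as the libraries in the table.

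Counts were filtered with filterByExpr (minimum count 10, leaving 13888 of 56748 genes), normalised by TMM and tested with the edgeR quasi-likelihood test (edgeR 4.0.16, R 4.3.3), with Benjamini-Hochberg adjustment over all tested genes. The common biological coefficient of variation was 0.197. Intervals on the log2 fold change cover 95%. TPM values were computed from the deposited counts and exonic lengths. Single values were compared by a two-sided exact permutation test over the 6 hearts. The labels call the hearts separate samples, and p-values measure the spread between them. The tests were checked on simulated counts with changes planted in known genes. These counts held no library that stood apart and no trend with length, so the check does not cover either.

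Alternatives were DESeq2 1.42.0, its size factors, library size alone, other filters, mitochondrial genes left out, a replicate block, limma-voom with sample quality weights (limma 3.58.1) and each library left out (for the partner, remodeller and marker lists this was added after seeing the data). The members, the partner, remodeller and marker lists and the tests were chosen with earlier results of these data known. Genes were given in full if they were an ATPase, acetyltransferase, scaffold or R2TP core gene, had the smallest p of their group in either direction, or had groups that did not overlap. In partner, remodeller and marker lists the gene with the smallest p is named; others were chosen after their values were seen.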

Additional observations from a re-analysis of the deposited data

How the results depend on the processing

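Over 14 alternatives no member passed an adjusted p of 0.05 (the smallest was 0.844). Of the 40 genes, 18 kept the sign of their log2 fold change in every alternative, Ruvbl1, Ino80e, Ino80c, Dmap1, Pih1d1 and Srcap among them, while 22 changed it in some. Ino80e had an unadjusted p under 0.05 in 12 of the 14. The limits are those of 3 hearts a group, 1 library that stood apart, and low counts for Srcap and Znhit2.

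The number of genes called higher, 0 by the edgeR test reported, was 1 with limma-voom and 0 to 1 with a library left out (1 without Pontin cTG replicate 2). Genes called lower, also 0, numbered 1 with DESeq2, 3 with no filter, 2 with limma-voom and 0 to 2 with a library left out (2 without Pontin cTG replicate 2). At an unadjusted p under 0.05 the edgeR test had 285 of 13888 genes. The other counts were 217 with DESeq2 and 478 with no filter (both of 25636), 810 with limma-voom, and from 122 (without WT replicate 1) to 686 (without Pontin cTG replicate 2) with a library left out. Members with an unadjusted p under 0.05 in the higher direction numbered 2 with limma-voom (Ino80e and Dmap1), where 2.82% of all genes were higher at that level, and 0 to 1 with a library left out (0 without WT replicate 1 or WT replicate 3). In the lower direction there were 0 to 1 with a library left out, the 1 being Srcap without Pontin cTG replicate 1, where 2.42% of all genes were lower at that level. The causes were not tested.

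Some signs turned with another processing. With limma-voom Actr8 was 0.0048, Nfrkb -0.17, Tfpt -0.029, Ing3 -0.034 and Mrgbp -0.14. With library size alone, where the median of all genes was 0.031, Uchl5 was 0.021, Kat5 0.0086, Trrap 0.0023 and Meaf6 0.017. With no filter Nfrkb was -0.0057, Ing3 -0.0088 and Mrgbp -0.0097, and with DESeq2 Ing3 was -0.0029 and Mrgbp -0.0038. The ranges of log2 fold changes with a library left out that crossed 0 were Ruvbl2 -0.015 to 0.13, Ino80 -0.18 to 0.034, Ino80d -0.16 to 0.032, Actr8 -0.11 to 0.025, Yy1 -0.067 to 0.14, Nfrkb -0.21 to 0.11, Uchl5 -0.12 to 0.089, Kat5 -0.073 to 0.032, Trrap -0.23 to 0.15, Ep400 -0.19 to 0.0080, Brd8 -0.21 to 0.067, Epc1 -0.20 to 0.046, Ing3 -0.094 to 0.11, Meaf6 -0.13 to 0.10, Morf4l1 -0.026 to 0.19, Morf4l2 -0.19 to 0.072, Mrgbp -0.32 to 0.21, Actl6a -0.14 to 0.016, Vps72 -0.021 to 0.19, Rpap3 -0.27 to 0.028 and Nufip1 -0.17 to 0.029. For the partner, remodeller and marker lists, leaving out libraries was added after seeing the data. There the ranges that crossed 0 among the genes given with a value were Nppa -0.86 to 1.65, Tie1 -0.020 to 0.27, Ptprc -0.57 to 0.23, Postn -0.53 to 0.97, Myh6 -0.29 to 0.033, Hsp90aa1 -0.13 to 0.17, Hsp90ab1 -0.048 to 0.17 and Hba-a2 -0.40 to 0.29. The R2TP median was 0.0011 with limma-voom.

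The replicate numbers are shared between the groups. Deviations of same-numbered libraries correlated at 0.077, 0.43 and 0.19, and 2 of the 6 libraries correlated best with their own number. With so few libraries, these values cannot decide whether same-numbered libraries share more than a number. With the replicate number as a block, 0 genes were called and 499 had an unadjusted p under 0.05. Of the members 1 was then lower at that level and 1 higher, beside 2.32% and 1.27% of all genes, the lower one being Srcap at a log2 fold change of -0.67, and Nfrkb was -0.0073 and Mrgbp -0.039.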

Other observations

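Other chromatin remodellers that lack the Pontin ring were read in the same way. Of 44 genes of the BAF, NuRD and ISWI families, 43 passed the filter (Dpf1 did not), with a median log2 fold change of -0.043, 15 above 0 and 28 below. None was called at an adjusted p under 0.05 by edgeR. At an unadjusted p under 0.05, 1 was lower and none higher, beside 1.03% and 1.02% of all tested genes. The 11 ISWI genes had a median of -0.10 and the 18 BAF genes -0.056, while the 14 NuRD genes lay at -0.0098. With single libraries left out these medians ran from -0.12 to -0.047 for ISWI, from -0.11 (without WT replicate 2) to -0.0084 (without Pontin cTG replicate 2) for BAF and from -0.040 (without WT replicate 2) to 0.026 (without WT replicate 1) for NuRD. Exonic length ran from 2040 bases in Pole3 to 19039 in Rsf1 for ISWI. It ran from 3589 in Smarcd2 to 14269 in Smarca2 for BAF and from 1987 in Mbd3 to 11443 in Gatad2b for NuRD. The part of length in these values was not tested. Rsf1, the histone-binding partner of an ISWI ATPase, had 271, 342 and 311 normalised counts in WT and 258, 224 and 249.5 in Pontin cTG hearts. All of its Pontin cTG hearts were below all WT hearts (-0.34 ± 0.14 SE; unadjusted p = 0.0398 and adjusted p = 0.999 by edgeR; exact permutation p = 0.1).

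Smarcc1, a core scaffold of BAF, had 483, 444 and 474 normalised counts in WT and 427, 292 and 404 in Pontin cTG hearts. The groups did not overlap (-0.32 ± 0.16 SE; edgeR adjusted p = 0.999; exact permutation p = 0.1), replicate 2 was the lowest, and leaving it out gave -0.17. In NuRD the smallest p belonged to Mbd3, a subunit with a methyl-CpG-binding domain (0.21 ± 0.16 SE, 0.089 without WT replicate 2), whose groups overlapped, and Mta3 had all Pontin cTG hearts above all WT hearts (0.16 ± 0.14 SE, 0.075 to 0.23 over the libraries left out). Groups lay apart in the higher direction for 2.33% and in the lower direction for 4.65% of these 43 genes, beside 4.7% and 3.63% of all tested genes.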
